A study of Mus musculus with 6 samples.

Results

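Matrix proteases and their inhibitors were taken as all genes named Adam, Adamts, Adamtsl, Mmp or Timp with a number in the deposited expression table. The rule found 83 genes, each with a value in every library, among 21553 genes with values. The libraries came from kidneys of 6 mouse embryos at E13.5. In 3 embryos both copies of Fat4, a giant atypical cadherin, were mutant (Fat4-/-), and 3 embryos were wildtype (Fat4+/+). The strain label of both genotypes is C57BL6/6, backcrossed 6 times, and 1 pregnant female gave the embryos. Each library held total RNA of the 2 kidneys of an embryo, dissected without most of the ureter. How the mutant allele was built is not stated in the labels, which also tie the mutation to no single cell type. The comparison addresses how gene expression differs between kidneys labelled Fat4-/- and wildtype littermate kidneys.

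Matrix proteases cut the proteins between cells, release growth factors and receptors from cell surfaces, and so take part in branching of the ureteric bud and in remodelling of the mesenchyme around it. Adam proteins are mostly anchored in the membrane and shed other membrane proteins. Adamts proteins are secreted and cleave proteoglycans, procollagens and fibrillin-rich fibres, while Adamtsl proteins resemble them without a protease domain. Mmp enzymes are made as inactive zymogens, and Timp proteins block the active enzymes.

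The deposited unit, cRPKM (corrected RPKM), scales reads by gene length and library size, so levels can be compared between genes. Fat4 was at 7.82, 7.20 and 7.49 cRPKM in mutant embryos 1, 2 and 3, against 16.74, 15.69 and 16.83 in wildtype embryos 1, 2 and 3 (log2 fold change -1.03, limma adjusted p = 0.000155). The mutant mean was 45.7% of the wildtype mean, so Fat4 RNA was still present, and a whole-gene level does not by itself show that both copies are mutant. Markers of nephron progenitors, early nephron, ureteric epithelium, stroma and endothelium were present in every library. The 6 nephron progenitor markers had summed levels of 278 to 318 cRPKM in mutant embryos, against 225 to 246 in wildtype embryos. Six2 alone held 88.2 to 139 cRPKM of these sums. Six2, Eya1, Osr1, Meox1 and Itga8 were higher in every mutant embryo, and Cited1 overlapped. Only Eya1 and Osr1 had a limma adjusted p under 0.05 (0.00418 and 0.0237). The 6 stromal markers had 374 to 402 cRPKM in mutant embryos, against 390 to 494 in wildtype embryos. Col1a1 alone held 153 to 238 cRPKM of these sums. Pdgfra and Tcf21 were lower in every mutant embryo, and Foxd1, Pdgfrb, Meis1 and Col1a1 overlapped. The 7 ureteric markers had 138 to 141 cRPKM in mutant embryos, against 142 to 173 in wildtype embryos. Of these, Cdh1 and Krt18 were lower in every mutant embryo, and Ret, Wnt11, Wnt9b, Gata3 and Hoxb7 overlapped. The part of these lists in the results below was not tested. In whole kidneys, fewer cells of a type and less RNA per cell cannot be told apart. Summed over Ddx3y, Eif2s3y, Kdm5d and Uty, the Y-linked level was 69.6, 0.08 and 0.15 cRPKM in mutant embryos 1 to 3, against 72.97, 65.27 and 68.82 in wildtype embryos 1 to 3, so the genotypes were not balanced for sex. Read totals are unknown. From the steps between low values, a rough depth relative to wildtype embryo 1 was 1.00 to 1.04 in the mutant libraries and 0.904 to 1 in the wildtype libraries. The estimate accounted for only part of the low genes used, such as 22 of 32 in mutant embryo 2 and 17 of 35 in wildtype embryo 3.

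The kidney expressed a limited part of these families, and a few genes held most of the signal. Of the 83 genes, 40 reached the minimum for testing, a mean of 1 cRPKM across libraries. The other 43 were too low, 10 of them at 0 in every library. Mmp14, a membrane-type collagenase and activator of Mmp2, had the highest mean at 95.4 cRPKM and ranked 702 among all genes. It was followed by the sheddase Adam10 at 65.8, the gelatinase Mmp2 at 59.3 and the inhibitor Timp2 at 45.6 cRPKM. These 4 genes made up 46.1% of the summed level of the families, and the 10 highest genes 71.0%. The families as a whole took between 0.112% and 0.120% of the summed cRPKM of mutant libraries, against 0.117% to 0.123% in wildtype libraries.

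**Figure D1:**
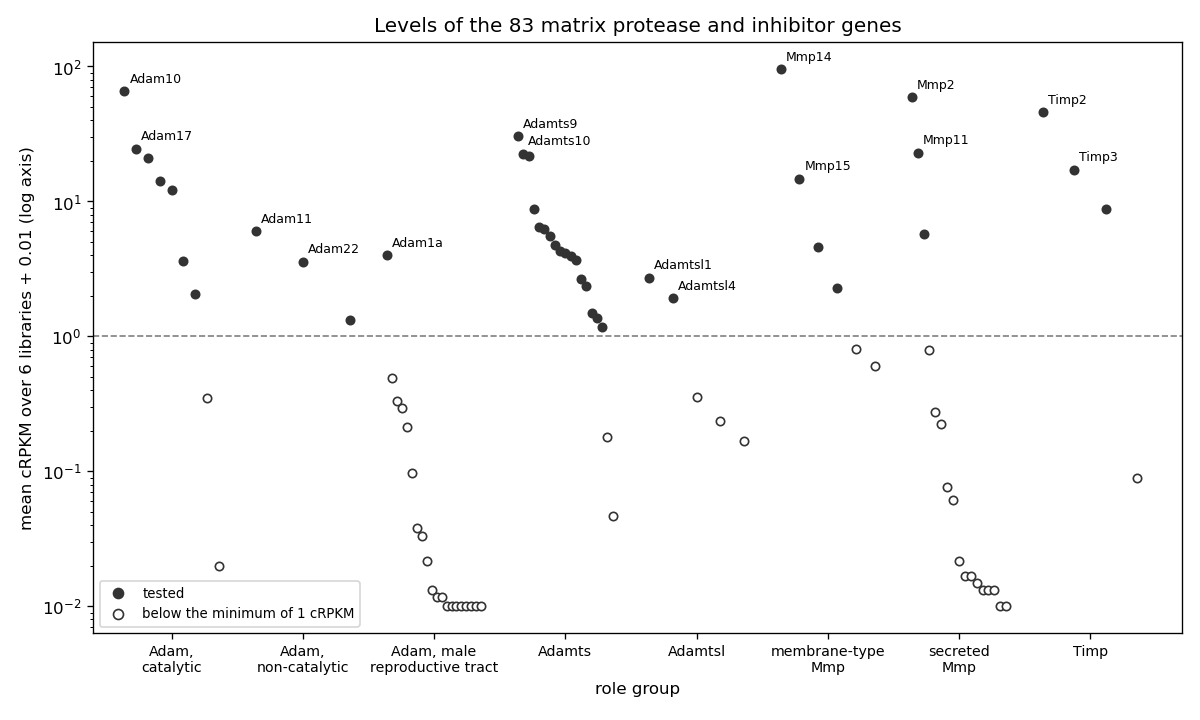
Mean cRPKM over the 6 libraries, with 0.01 added and on a log axis, of the 83 genes by role group; filled points were tested and open points lay below 1 cRPKM. Mmp14, Adam10, Mmp2 and Timp2 stand highest, and 19 of the 20 Adam genes of the male reproductive tract and 14 of the 17 secreted Mmp genes lie below the dashed minimum.

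None of the 40 tested genes passed the test after adjustment over all 12315 tested genes, of which 1.43% passed, 0.552% higher and 0.877% lower in mutant kidneys (limma, Benjamini-Hochberg adjusted p under 0.05). At an unadjusted p under 0.05 there were 14 of 40, with 5 higher and 9 lower in mutant kidneys, or 35.0%, against 13.0% of all tested genes (5.08% higher and 7.97% lower). The lean to lower values was not stable, with 6 higher and 6 lower without mutant embryo 2, 7 higher and 6 lower without wildtype embryo 1, and 7 higher and 8 lower with quantile normalisation. The 3 mutant values lay wholly apart from the 3 wildtype values for 14 of 40 genes, 5 higher and 9 lower, against 18.2% of all tested genes (7.23% higher and 11.0% lower). Of the 40 log2 fold changes 27 were below 0 (67.5%), against 56.8% of all tested genes, and the medians were -0.04 for the 40 and -0.01 for all. With quantile normalisation 21 were below 0 (52.5%), against 48.7% of all tested genes, and the median of the 40 was -0.0049. The differences were small, from -0.39 (Adamts16) to 0.38 (Adamts18) on the log2(cRPKM + 1) scale, and no mean differed by 1.5 times. By the ratio of means, which that scale understates for low genes, Adam23 stood highest at 1.43, against 1.34 for Adamts18. The 14 genes were Adamts17, Mmp2, Adamts1, Adamts16, Timp3, Adam23, Adam11, Adamts5, Adamtsl4, Adamts9, Adamts18, Adamts20, Adam12 and Adamts10, in order of p. Their adjusted p-values ran from 0.0538 to 0.352, so each is given here as a value that did not pass. With the level of the Y-linked genes as a covariate, 6 of the 40 were at an unadjusted p under 0.05 (15%, against 5.59% of all tested genes). These were Adamts17, Mmp2, Adamts1, Adamts16, Adam23 and Adamtsl4, and the part of sex in the other differences was not tested further.

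**Figure D2:**
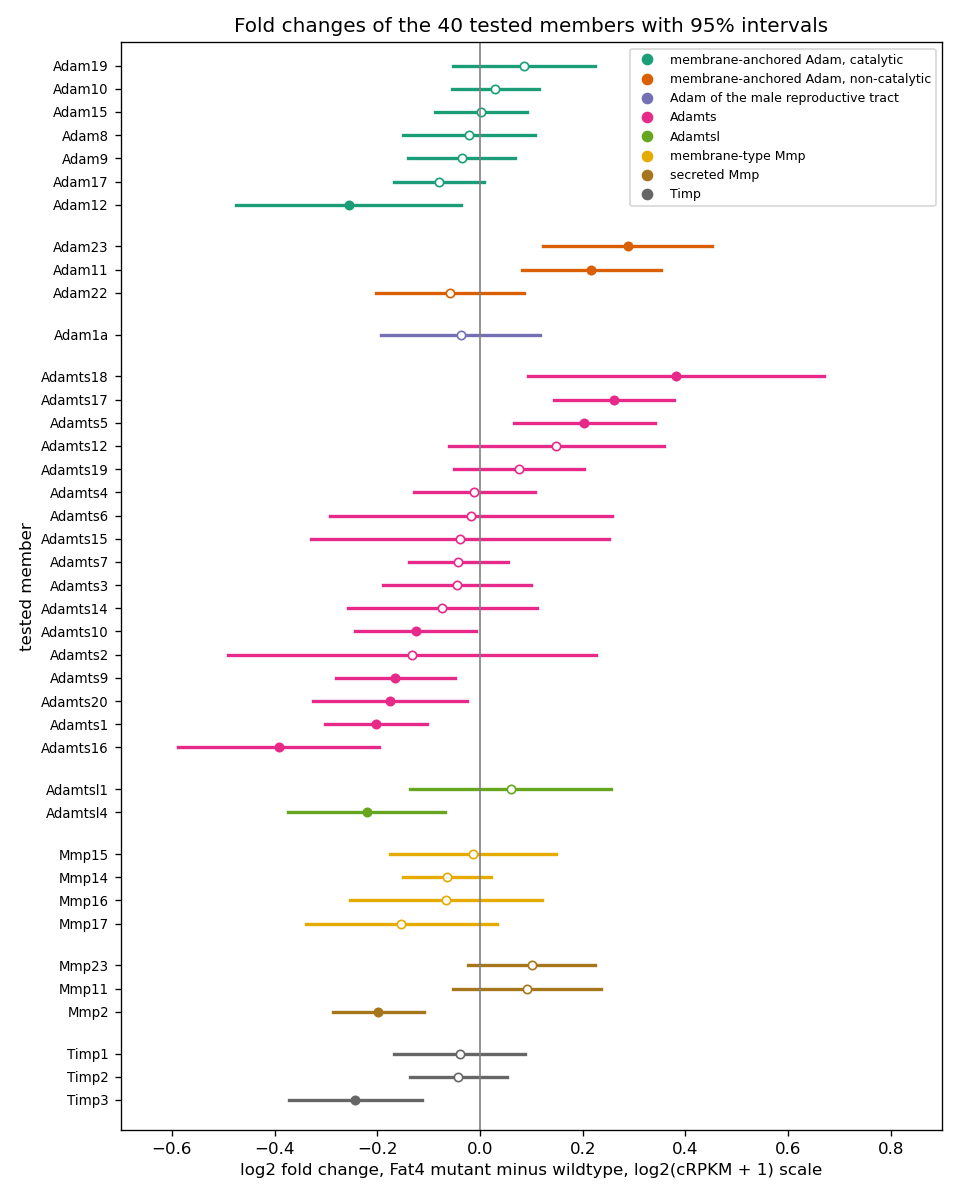
Log2 fold change of the 40 tested genes, Fat4 mutant minus wildtype, on the log2(cRPKM + 1) scale, by role group, with 95% intervals as lines. Filled points have an unadjusted p under 0.05; they run from Adamts18 at 0.38 to Adamts16 at -0.39, and no gene passed after adjustment over all genes.

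Promoters are shown for 4 of these 14 genes, a pair with higher and a pair with lower mutant values, to show the sequence at the starts of genes whose genotypes did not overlap, although none passed over all genes. The windows are from RefSeq on GRCm38.p6, run 5′ to 3′ on the gene's strand, and cover 250 bases before and 50 after the annotated start. They are chr7:66839485-66839784 on the plus strand (Adamts17), chr1:63445641-63445940 on the plus strand (Adam23), chr16:85803064-85803363 on the minus strand (Adamts1) and chr10:86300162-86300461 on the plus strand (Timp3). Capitals mark matches, on both strands, to GGAATG (the core of Tead sites), TGANTCA (the AP-1 site known from Mmp promoters), TATAAA (the TATA box) and GGGCGG (the GC box); a match to the other strand appears as the reverse complement.
Adamts17: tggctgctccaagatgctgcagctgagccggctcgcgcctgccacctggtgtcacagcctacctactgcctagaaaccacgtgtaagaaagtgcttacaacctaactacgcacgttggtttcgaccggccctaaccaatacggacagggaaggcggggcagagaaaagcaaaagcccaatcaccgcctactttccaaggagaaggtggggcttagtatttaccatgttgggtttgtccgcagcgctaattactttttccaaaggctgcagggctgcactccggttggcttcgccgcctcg
Adam23: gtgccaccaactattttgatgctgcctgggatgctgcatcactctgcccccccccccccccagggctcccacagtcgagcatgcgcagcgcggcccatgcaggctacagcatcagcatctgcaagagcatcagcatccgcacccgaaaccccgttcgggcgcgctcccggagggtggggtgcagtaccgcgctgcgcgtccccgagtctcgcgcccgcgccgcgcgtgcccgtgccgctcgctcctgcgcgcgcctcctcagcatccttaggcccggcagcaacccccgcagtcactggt
Adamts1: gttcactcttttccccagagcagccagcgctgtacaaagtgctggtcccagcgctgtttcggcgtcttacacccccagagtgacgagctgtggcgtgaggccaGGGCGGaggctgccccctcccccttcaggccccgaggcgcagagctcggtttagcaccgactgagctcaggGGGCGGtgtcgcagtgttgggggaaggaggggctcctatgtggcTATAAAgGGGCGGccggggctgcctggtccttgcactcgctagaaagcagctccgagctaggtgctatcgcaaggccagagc
Timp3: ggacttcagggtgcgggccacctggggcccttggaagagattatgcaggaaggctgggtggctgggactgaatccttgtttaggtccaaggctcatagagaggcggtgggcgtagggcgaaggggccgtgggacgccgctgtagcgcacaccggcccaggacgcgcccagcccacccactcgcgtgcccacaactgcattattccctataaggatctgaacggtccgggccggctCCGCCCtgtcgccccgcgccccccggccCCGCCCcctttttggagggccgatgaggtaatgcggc
The Adamts1 window held 1 TATA box and 3 GC boxes, 1 of them directly behind the TATA box with a single base between. The Timp3 window held 2 GC boxes, both on the other strand. The windows of Adamts17 and Adam23 held no match to any of the 4 motifs, although that of Adam23 was the richest in G and C, at 70.0%, against 55.7% for Adamts17, 64.7% for Adamts1 and 67.0% for Timp3. The table gave 28 windows for 25 of the 40 tested genes. GC boxes were in 71.4% of these 28, against 35.7% of all 32851 windows, which include genes not expressed in kidney. The Tead core was in 10.7%, against 14.7% of all windows. AP-1 sites were in 3.57% and TATA boxes in 3.57%, against 7.81% and 13.6% of all windows. These are matches of letters and not shown to be bound.

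Among the membrane-anchored Adam genes with a protease domain, levels were close between genotypes. Adam10, which cuts Notch receptors and cadherins, was at 67.33, 65.37 and 66.92 cRPKM in mutant embryos 1 to 3, against 65.79, 63.84 and 65.81 in wildtype embryos 1 to 3. Its log2 fold change was 0.03 with a 95% interval from -0.05 to 0.11, and the ranges overlapped. Adam17, which releases tumour necrosis factor and ligands of the Egf receptor, was at 24.18, 23.21 and 24.31 cRPKM in mutant embryos, against 25.87, 24.93 and 25.13 in wildtype embryos. All mutant values of Adam17 were below all wildtype values, but by little (log2 fold change -0.08, SE 0.0386, limma adjusted p = 0.439). Adam19, Adam9, Adam15 and Adam8 had overlapping values and log2 fold changes from -0.04 to 0.09. Adam12, a protease of mesenchyme that also cuts Igf binding proteins, was at 3.28, 2.78 and 3.49 cRPKM in mutant embryos, against 4.62, 3.47 and 3.92 in wildtype embryos. Its log2 fold change was -0.26 (SE 0.0956, limma adjusted p = 0.300), wildtype embryo 2 lay within the mutant range, and without wildtype embryo 1 the value was -0.17 (unadjusted p = 0.0897). Adam28 and Adam33 were too low to test.

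The Adam proteins without a working protease site, Adam11, Adam22 and Adam23, are known mainly from neurons, where they bind Lgi proteins. Adam11 was at 6.39, 6.22 and 7.10 cRPKM in mutant embryos, against 5.35, 5.83 and 5.35 in wildtype embryos. Adam23 was at 1.69, 1.37 and 1.59 cRPKM in mutant embryos, against 1.03, 1.19 and 1.04 in wildtype embryos. Both were higher in each mutant embryo than in any wildtype embryo. The log2 fold changes were 0.22 (SE 0.0593, limma adjusted p = 0.143) for Adam11 and 0.29 (SE 0.0719, limma adjusted p = 0.109) for Adam23. Adam23 is among the lowest tested genes, where the log2(cRPKM + 1) scale understates a difference, and its ratio of means was 1.43. Adam22 was at 3.48 ± 0.226 cRPKM in mutant and 3.67 ± 0.262 in wildtype kidneys (SD, n = 3 each), with overlapping values. The 5 nerve and neural crest markers had summed levels of 7.52 to 8.26 cRPKM in mutant embryos, against 7.40 to 12.0 in wildtype embryos, with overlap. Of 20 Adam genes known from testis and epididymis, Adam1a alone was high enough to test, with 3.92 ± 0.410 cRPKM in mutant and 4.04 ± 0.136 in wildtype kidneys (SD, n = 3 each). Its near-identical neighbour Adam1b was at most 0.04 cRPKM, and the labels do not say how reads shared by such copies were assigned.

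The secreted Adamts proteases were the best represented family, with 17 of 19 genes tested, and had values on both sides of wildtype. At an unadjusted p under 0.05, 3 were higher and 5 lower in mutant kidneys (47.1% of the 17, against 13.0% of all tested genes), and none passed over all genes. Those that cut the proteoglycan versican lay on both sides of wildtype. Adamts1, a versicanase whose loss in mice damages kidney and ureter, was at 19.77, 19.66 and 20.72 cRPKM in mutant embryos, against 23.78, 22.23 and 23.64 in wildtype embryos. Adamts9, another versicanase and the most abundant gene of the family, was at 29.47, 27.72 and 29.12 cRPKM in mutant embryos, against 34.33, 32.34 and 30.55 in wildtype embryos. For both genes all mutant values were below all wildtype values, with log2 fold changes of -0.20 (SE 0.0433, limma adjusted p = 0.0699) for Adamts1 and -0.17 (SE 0.0505, adjusted p = 0.196) for Adamts9. Adamts20, known from melanoblast migration in mice, was at 1.09, 0.98 and 1.01 cRPKM in mutant embryos, against 1.37, 1.17 and 1.33 in wildtype embryos, also apart (log2 fold change -0.18, adjusted p = 0.299). Adamts5, a main protease of aggrecan and versican, lay the other way, at 4.02, 3.94 and 4.08 cRPKM in mutant embryos, against 3.67, 3.32 and 3.09 in wildtype embryos. Its mutant values were all higher and close together (log2 fold change 0.20, SE 0.0601, adjusted p = 0.181). Adamts4 was at 4.30 ± 0.241 cRPKM in mutant and 4.34 ± 0.0451 in wildtype kidneys (SD, n = 3 each). Versican itself (Vcan) was at 72.02, 63.25 and 69.61 cRPKM in mutant embryos, against 71.90, 64.81 and 71.82 in wildtype embryos, a log2 fold change of -0.03 (adjusted p = 0.909).

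Adamts1 and Adamts5 are neighbours on chromosome 16 (85793827 to 85803113 and 85856173 to 85901828, both on the minus strand, GRCm38) and lay in opposite directions. The ratio of Adamts1 to Adamts5 was 4.92, 4.99 and 5.08 in mutant embryos 1 to 3, against 6.48, 6.70 and 7.65 in wildtype embryos 1 to 3. The mutant ratios were lower and nearly equal to each other. An exact permutation test over embryos gave p = 0.1, which is the smallest that 3 against 3 embryos allow. That outcome was fixed in advance, because neither gene overlapped between genotypes and they lay in opposite directions, so the test adds nothing to the values. This ratio and 3 others below were chosen after the values were seen, from many possible pairs. All 4 had the same permutation p, so adjustment over the 4 leaves it at 0.1 and does not account for that choice. Another pair of close relatives, Adamts16 and Adamts18, also had values on opposite sides of wildtype, and neither passed. Adamts16 was at 3.91, 3.78 and 4.21 cRPKM in mutant embryos, against 5.45, 4.81 and 6.38 in wildtype embryos (log2 fold change -0.39, SE 0.0855, limma adjusted p = 0.0738). Adamts18, known in mice from the tips of branching epithelia, was at 7.25, 7.52 and 6.78 cRPKM in mutant embryos, against 6.15, 5.95 and 3.98 in wildtype embryos (log2 fold change 0.38, SE 0.126, adjusted p = 0.240). Neither gene overlapped between genotypes, and wildtype embryo 3 was the extreme for both, highest for Adamts16 and lowest for Adamts18. Their ratio was 0.539, 0.503 and 0.621 in mutant embryos, against 0.886, 0.808 and 1.60 in wildtype embryos (exact permutation p = 0.1, the smallest possible). Here too the outcome of the test was fixed by the values of the 2 genes. Without wildtype embryo 3 the log2 fold changes were -0.30 for Adamts16 and 0.21 for Adamts18. In that embryo the early nephron markers summed to 139 cRPKM and the ureteric markers to 173, against 107 and 121, and 142 and 148, in wildtype embryos 1 and 2. The part of this in the values of both genes was not tested.

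Adamts17 had the smallest p of the 40 tested genes in the fit as reported, but this rank was not stable. Without a filter on low values Mmp2 had a smaller limma p (0.00059, against 0.0021 for Adamts17). Mmp2 also had the smaller p with the stricter filter, rescaling, quantile normalisation, the Y-linked covariate, the replicate block and library weights. Adamts17 kept the smaller p with the other pseudocount and without a trend. Adamts17 acts with fibrillin fibres, and in people its loss gives a syndrome of short stature and lens dislocation, as does loss of Adamts10. Adamts17 was at 5.80, 6.27 and 6.27 cRPKM in mutant embryos, against 5.14, 4.92 and 4.75 in wildtype embryos, with no overlap. The log2 fold change was 0.26 (SE 0.0510, 95% interval 0.14 to 0.38, limma adjusted p = 0.0538), and 0.20 with the Y-linked covariate (adjusted p = 0.712). Adamts10 lay the other way at 21.99, 20.57 and 22.24 cRPKM in mutant embryos, against 24.24, 24.56 and 22.19 in wildtype embryos, and wildtype embryo 3 fell within the mutant range (log2 fold change -0.13, adjusted p = 0.352). Fibrillin 1 (Fbn1) was at 17.77, 16.24 and 17.68 cRPKM in mutant embryos, against 22.38, 18.06 and 18.86 in wildtype embryos (log2 fold change -0.18, adjusted p = 0.361), and fibrillin 2 (Fbn2) at 76.0 ± 3.30 in mutant and 74.4 ± 1.94 in wildtype kidneys (SD, n = 3 each). Adamtsl4, which binds fibrillin 1 and has no protease domain, was at 1.54, 1.72 and 1.78 cRPKM in mutant embryos, against 2.27, 1.94 and 2.16 in wildtype embryos. Its values were lower in every mutant embryo (log2 fold change -0.22, SE 0.0668, adjusted p = 0.193). Adamtsl4 lies on the chromosome of Fat4, chromosome 3, at a distance of 56.7 Mb. Adam15, on the same chromosome and nearer to Fat4 at 50.3 Mb, had a log2 fold change of 0.002 (adjusted p = 0.990). Adamtsl1 overlapped between genotypes, at 2.79 ± 0.209 cRPKM in mutant and 2.65 ± 0.390 in wildtype kidneys (SD, n = 3 each), and Adamtsl2, Adamtsl3 and Adamtsl5 were too low to test.

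**Figure D3:**
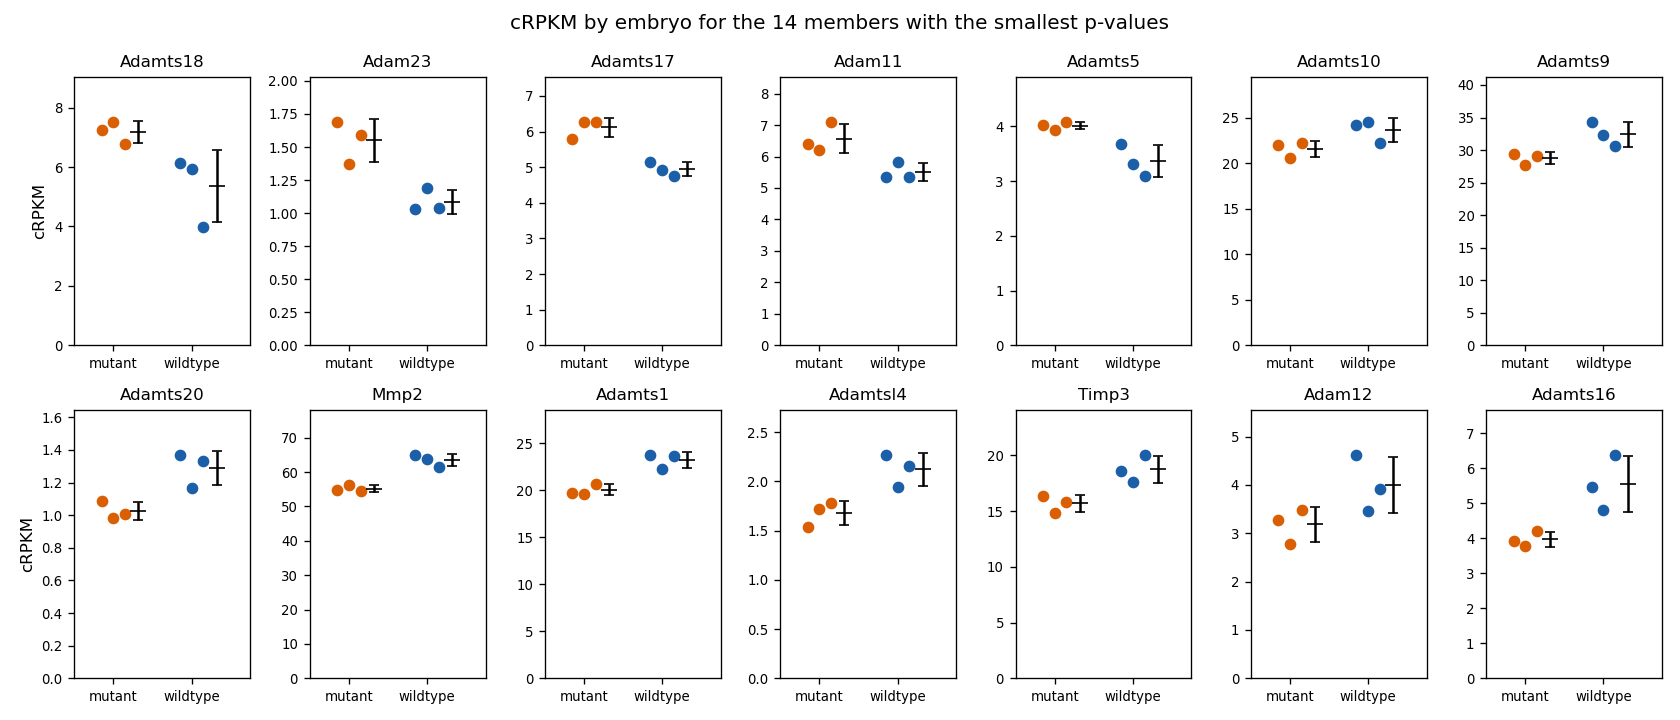
cRPKM of each embryo for the 14 genes with an unadjusted p under 0.05, mutant embryos in orange and wildtype embryos in blue, embryos 1 to 3 from left to right; black marks are the mean and SD of 3 embryos. Points of the genotypes overlap for Adam12 and Adamts10 and are apart for the other 12 genes.

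The procollagen proteases Adamts2, Adamts3 and Adamts14, which remove the amino-terminal propeptide of fibrillar collagens or act on related targets, did not differ beyond the spread between embryos. Adamts2 was at 2.15, 1.96 and 2.37 cRPKM in mutant embryos, against 3.43, 2.46 and 1.70 in wildtype embryos, so the wildtype values spanned all mutant values. Wildtype embryo 1 was highest for Adamts2, and likewise for Adamts15 (5.36 cRPKM, with the other embryos between 3.30 and 4.41) and Adamts6 (5.13 cRPKM, with the others between 3.29 and 4.01). These 3 genes had the widest wildtype spread of all 40. The coefficient of variation was 9.50% in mutant and 34.3% in wildtype kidneys for Adamts2, 4.23% in mutant and 24.7% in wildtype kidneys for Adamts6, and 7.86% in mutant and 24.4% in wildtype kidneys for Adamts15. The same embryo was highest for the collagen chains Col1a1 (238.34 cRPKM, with the other embryos between 153.27 and 182.40) and Col1a2 (185.91 cRPKM, with the others between 110.73 and 127.35). Of the 40 tested genes 15 were lowest in mutant embryo 2 (37.5%), against 22.2% of all tested genes, and 19 were highest in wildtype embryo 1 (47.5%), against 24.3% of all tested genes. With all embryos the log2 fold changes were -0.13 for Adamts2, -0.02 for Adamts6 and -0.04 for Adamts15. Without wildtype embryo 1 they were 0.05 for Adamts2, 0.14 for Adamts6 and 0.11 for Adamts15, and without wildtype embryo 3, the lowest wildtype embryo for each, -0.31 for Adamts2 (unadjusted p = 0.0188), -0.12 for Adamts6 and -0.17 for Adamts15. None passed over all genes in any of these fits. Adamts12 (log2 fold change 0.15), Adamts19 (0.08) and Adamts7 (-0.04) overlapped between genotypes.

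**Figure D4:**
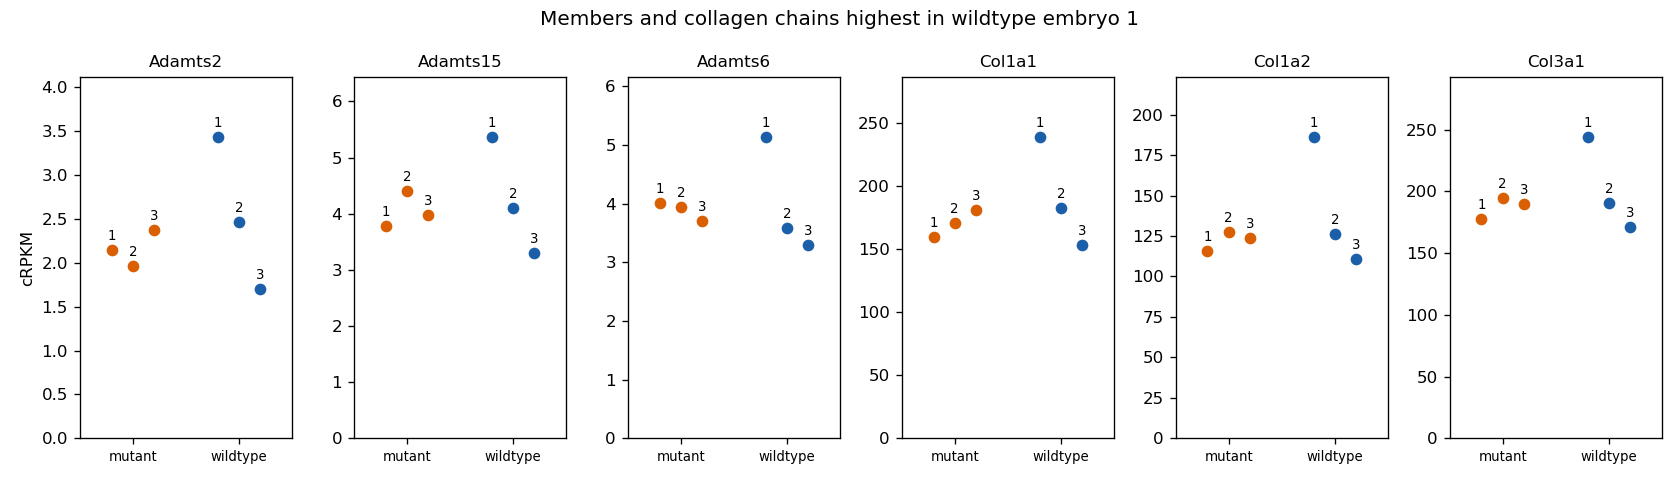
cRPKM of each embryo, numbered 1 to 3, mutant in orange and wildtype in blue, for 3 Adamts genes and 3 collagen chains. Wildtype embryo 1 is the highest of the 6 libraries in each panel, with Adamts2 at 3.43 and Col1a1 at 238.34 cRPKM.

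Of the Mmp genes, Mmp2 had lower values in each mutant embryo, without passing over all genes. Mmp2, a gelatinase made mainly by mesenchyme, was at 54.82, 56.29 and 54.42 cRPKM in mutant embryos, against 64.99, 63.88 and 61.45 in wildtype embryos. The mean was 55.2 ± 0.985 cRPKM in mutant and 63.4 ± 1.81 in wildtype kidneys (SD, n = 3 each), a ratio of 0.870, and the values did not overlap. The log2 fold change was -0.20 (SE 0.0391, 95% interval -0.29 to -0.11, limma adjusted p = 0.0556). The adjusted p was 0.0454 with libraries rescaled to the same total, 0.0301 with quantile normalisation and 0.554 with the Y-linked covariate. The stromal receptor gene Pdgfra, which passed over all genes, was at 30.37, 29.67 and 29.21 cRPKM in mutant embryos, against 43.97, 39.81 and 41.85 in wildtype embryos, while Foxd1, a marker of stromal progenitors, was at 40.88, 48.28 and 40.37 in mutant embryos, against 43.33, 46.16 and 36.36 in wildtype embryos. The part of stromal content in the level of Mmp2 was not tested.

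At the cell surface Mmp14 and Timp2 form the complex that activates Mmp2. Mmp14 was at 91.30, 95.13 and 93.31 cRPKM in mutant embryos, against 96.26, 98.30 and 97.96 in wildtype embryos, apart but by little (log2 fold change -0.06, SE 0.0375, limma adjusted p = 0.536). Timp2 was at 43.29, 45.57 and 45.97 cRPKM in mutant embryos, against 47.00, 44.96 and 46.93 in wildtype embryos, with overlap (log2 fold change -0.04, adjusted p = 0.737). The ratio of Mmp2 to Mmp14 was 0.600, 0.592 and 0.583 in mutant embryos, against 0.675, 0.650 and 0.627 in wildtype embryos. The ratio of Mmp2 to Timp2 was 1.27, 1.24 and 1.18 in mutant embryos, against 1.38, 1.42 and 1.31 in wildtype embryos. Both ratios were lower in every mutant embryo (exact permutation p = 0.1 for each, the smallest possible). Mmp2 itself was already apart between genotypes, and Mmp14 and Timp2 differed little, so these tests add little to the values of Mmp2. Of the other membrane-type enzymes, Mmp15 was at 14.6 ± 1.34 cRPKM in mutant and 14.8 ± 0.962 in wildtype kidneys, Mmp16 at 4.48 ± 0.192 in mutant and 4.76 ± 0.639 in wildtype kidneys, and Mmp17, held by a lipid anchor, at 2.10 ± 0.266 in mutant and 2.45 ± 0.250 in wildtype kidneys (SD, n = 3 each). All 3 overlapped between genotypes.

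In the secreted Mmp group, the other genes that reached the minimum for testing were Mmp11 and Mmp23. Mmp28, with a mean of 0.78 cRPKM, lay under it. Mmp11, which furin activates before secretion, was at 23.40, 25.15 and 22.76 cRPKM in mutant embryos, against 24.16, 22.03 and 20.63 in wildtype embryos (log2 fold change 0.09, limma adjusted p = 0.611). Mmp23 was at 5.97 ± 0.313 cRPKM in mutant and 5.50 ± 0.269 in wildtype kidneys (SD, n = 3 each), with overlap. A run of 10 Mmp genes on chromosome 9 (7272514 to 7699585, GRCm38), which holds the collagenases Mmp13, Mmp8, Mmp1a and Mmp1b, the stromelysins Mmp3 and Mmp10, the matrilysin Mmp7, and Mmp12, Mmp20 and Mmp27, was nearly silent. No value of these 10 genes exceeded 0.1 cRPKM in any library. The other gelatinase, Mmp9, known from leukocytes and osteoclasts, was at 0.16, 0.18 and 0.17 cRPKM in mutant embryos, against 0.30, 0.22 and 0.26 in wildtype embryos, under the minimum for testing.

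Timp3, the inhibitor that binds to matrix and also blocks Adam17 and Adamts enzymes, was lower in each mutant embryo. It was at 16.35, 14.87 and 15.84 cRPKM in mutant embryos, against 18.61, 17.62 and 20.04 in wildtype embryos, without overlap. The log2 fold change was -0.24 (SE 0.0564, 95% interval -0.37 to -0.11, limma adjusted p = 0.0873), and -0.18 with the Y-linked covariate (unadjusted p = 0.0535). Timp1, on the X chromosome, was at 8.68, 9.03 and 8.03 cRPKM in mutant embryos, against 9.20, 8.98 and 8.35 in wildtype embryos (log2 fold change -0.04, adjusted p = 0.831). Timp4 was at 0.10 cRPKM or less in every library. Summed, the 4 Timp genes reached 68.4, 69.6 and 69.9 cRPKM in mutant embryos, against 74.9, 71.6 and 75.4 in wildtype embryos, and the 17 secreted Mmp genes 85.8, 88.6 and 84.4 in mutant embryos, against 96.1, 93.1 and 89.0 in wildtype embryos. Both sums were lower in every mutant embryo, and their ratios of means were 0.937 for Timp and 0.930 for secreted Mmp genes. The secreted Mmp sum follows Mmp2, since the log2 fold changes of Mmp11 (0.09) and Mmp23 (0.10) had the other sign. The 9 catalytic Adam genes summed to 144 ± 3.44 cRPKM in mutant and 144 ± 3.50 in wildtype kidneys (SD, n = 3 each).

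**Figure D5:**
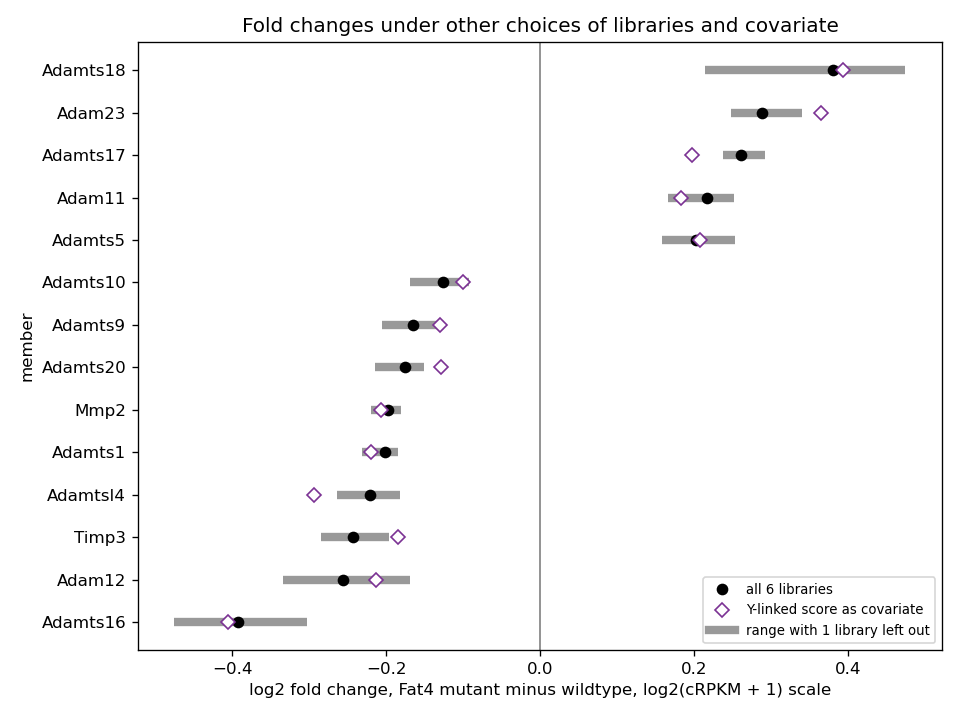
Log2 fold change, Fat4 mutant minus wildtype on the log2(cRPKM + 1) scale, of the 14 genes with an unadjusted p under 0.05: with all 6 libraries (black), with the Y-linked score as covariate (purple diamond) and over the 6 fits that leave out a library (grey bar). No bar or diamond crosses 0, and the bars are widest for Adamts18 and Adamts16.

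A list of 60 further genes of matrix proteolysis and its substrates was chosen with earlier results of these data known. Of these, 42 were tested, and 1 fell and none rose over all genes (2.38%, against 1.43% of all tested genes). The gene was Dpp4, a membrane peptidase known from the brush border of kidney tubules. It was at 3.39, 2.63 and 3.60 cRPKM in mutant embryos, against 6.36, 5.66 and 7.92 in wildtype embryos. All mutant values were lower than all wildtype values (log2 fold change -0.86, SE 0.120, limma adjusted p = 0.0196). The call was lost without any 1 mutant embryo (adjusted p from 0.0571 to 0.0695) and with the Y-linked covariate (adjusted p = 0.476). At an unadjusted p under 0.05 there were 10 of 42 (23.8%), 2 higher and 8 lower, against 13.0% of all tested genes (5.08% higher and 7.97% lower). The testican gene Spock2, a matrix proteoglycan that modulates proteases, was at 109.37, 108.34 and 117.94 cRPKM in mutant embryos, against 82.33, 93.71 and 95.53 in wildtype embryos (log2 fold change 0.30, adjusted p = 0.0667). Reck, a membrane inhibitor of Mmp14, Mmp2 and Mmp9, was at 14.59, 14.28 and 15.06 cRPKM in mutant embryos, against 16.56, 16.39 and 15.08 in wildtype embryos (log2 fold change -0.12, adjusted p = 0.329).

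The plasminogen activators lay in opposite directions and did not pass. Plau was at 4.78, 5.32 and 5.11 cRPKM in mutant embryos, against 6.87, 5.70 and 6.15 in wildtype embryos (log2 fold change -0.25, limma adjusted p = 0.136). Plat was at 46.40, 49.11 and 47.60 cRPKM in mutant embryos, against 43.43, 43.97 and 44.43 in wildtype embryos (log2 fold change 0.12, adjusted p = 0.236). The genotypes did not overlap for either gene. The serine proteases Tmprss2 (log2 fold change -0.29, adjusted p = 0.0859) and Htra3 (-0.30, adjusted p = 0.0935) and the substrate fibronectin, Fn1 (-0.26, adjusted p = 0.272), were also lower in every mutant embryo. Ctsl had the highest level of the other matrix proteases on the list. It was at 68.29, 67.25 and 62.00 cRPKM in mutant embryos, against 71.64, 69.75 and 68.50 in wildtype embryos. Its genotypes were apart but by little (log2 fold change -0.09, limma adjusted p = 0.496). Among convertases that activate Adam, Adamts and Mmp zymogens, Furin was at 21.8 ± 1.03 cRPKM in mutant and 20.7 ± 1.63 in wildtype kidneys (SD, n = 3 each), and Pcsk5 had a log2 fold change of -0.15 (adjusted p = 0.367). None of the 8 tested partners of Adam10 and Adam17, among them the iRhom genes Rhbdf1 and Rhbdf2 and the tetraspanin Tspan14, was at an unadjusted p under 0.05. The procollagen protease Bmp1 was at 45.4 ± 0.840 cRPKM in mutant and 46.1 ± 0.854 in wildtype kidneys (SD, n = 3 each).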

How the data were processed

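RNA from E13.5 kidneys of 3 Fat4-/- and 3 Fat4+/+ embryos was measured as 1 library per embryo. The deposited table holds RPKM values in a corrected form, cRPKM, of trimmed reads per the file headers (the correction steps are not given in the sources used here). Bowtie and the mm9 build appear in the submitters' processing notes. Of 22667 genes, 1114 had no value. Because the values are not counts, log2(cRPKM + 1) was tested with limma 3.58.1 in R 4.3.3 (eBayes with trend, 2-sided), mutant minus wildtype, for the 12315 genes whose mean reached 1 cRPKM, with Benjamini-Hochberg adjustment over all of these and calls at 0.05. The script was tested on simulated data. P-values measure the spread between embryos of a single litter. Single genes cannot go below an exact permutation p of 0.1. Read totals are unknown.

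The genes, role groups, partner list and markers were chosen with earlier results of these data known. Named were tested genes at an unadjusted p under 0.05, the 3 highest and the 2 most different of each role group, every Timp, partners at an unadjusted p under 0.05 and the highest of each partner group. Genes given beyond this rule, the groups of genes highest in wildtype embryo 1 and all ratios were chosen after values were seen. Adam genes of the male reproductive tract were set apart from the other Adam genes as a role group after the table was seen. Positions are from GENCODE M21 on GRCm38, not the mm9 build of the values. Alternatives were another pseudocount, 2 other filters, rescaling, quantile normalisation, no trend, a Y-linked covariate, a replicate block, library weights and leaving out each library.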

Additional observations from a re-analysis of the deposited data

How the results depend on the processing

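No tested member was called as reported, and none with a pseudocount of 0.1, with either other filter, with the Y-linked covariate or without any 1 library except wildtype embryo 2. With rescaling 1 was called (Mmp2), with quantile normalisation 2 (Mmp2 and Adamts17), without a trend 1 (Adamts17), with library weights 2 (Mmp2 and Adamts17), and over the fits without 1 library 0 to 1 (Adamts16, adjusted p = 0.0399, without wildtype embryo 2). The cause was not tested. Members at an unadjusted p under 0.05 numbered 14 as reported, 8 of 21 tested with the stricter filter, 6 with the Y-linked covariate and 12 to 14 without 1 library. Members whose genotypes did not overlap numbered 9 with the stricter filter and 16 to 20 without 1 library, where fewer embryos are compared. All 14 genes kept their sign in every alternative that tested them. Calls over all genes were 176 as reported, 32 without a filter, 109 with the stricter filter, 101 with rescaling, 2 with the covariate and 24 to 132 without 1 library (24 without mutant embryo 2, 30 without mutant embryo 3, 34 without mutant embryo 1, 71 without wildtype embryo 1). Higher genes were 38.6% of the calls as reported and 49.1% with quantile normalisation. Partner genes called were 1 as reported, 0 without a filter, with the stricter filter or with the covariate, 2 with library weights, and 0 to 1 without 1 library.

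The embryo numbers were not treated as pairs in the fit as reported. To look for pairs, the genotype mean of each tested gene was taken from its log2(cRPKM + 1) values. What remained was correlated between mutant and wildtype embryos, so these are not correlations of whole expression profiles. Same-numbered embryos correlated at 0.0985, 0.206 and 0.277, and other combinations from -0.373 to 0.227. Mutant embryo 1 correlated slightly better with wildtype embryo 3 (0.106), and mutant embryo 2 with wildtype embryo 1 (0.227). With 3 embryos per genotype these values cannot decide whether the numbers pair the embryos. With the replicate block 273 genes were called over all genes, 3 members (Adamts16, Mmp2 and Timp3) and 2 partner genes (Dpp4 and Spock2).

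Signs turned for genes near 0 and not called. Under quantile normalisation Adam1a was at 0.0055 and Mmp15 at 0.0044. With the covariate Adam1a was at 0.0784, Adam22 at 0.0192 and Bsg at -0.0035, and with library weights Mmp16 was at 0.0266 and Bsg at -0.013. Over the fits without 1 library, Mmp15 ran from -0.0768 to 0.0462, Adam1a from -0.0964 to 0.0244, Timp1 from -0.0761 to 0.0025, Adamtsl1 from -0.0206 to 0.1346, Bsg from -0.02 to 0.0409 and Col3a1 from -0.2014 to 0.054. Depth is unknown, and members with a mean under 1 cRPKM were tested only in the fit without a filter.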
